A study of Homo sapiens with 21 samples.

Results

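The genes of 2 protein machines, the proteasome and the chaperonin CCT, were followed through a TGFβ time course in HMLE, a cell line made by immortalizing human mammary epithelial cells. Members were taken by symbol, as the proteasome subunits and base factors named *PSMA*, *PSMB*, *PSMC* and *PSMD* and the CCT subunits *CCT2* to *CCT8* and *TCP1*. The rule left out *PSMB8* and *PSMB9* of the immunoproteasome, the form with other cutting subunits that interferon induces, and kept *PSMB10*, which also belongs to it. Of 45 such symbols, 43 had a mean normalised count of at least 10 over the 21 libraries, 35 of the proteasome and 8 of CCT, out of 23201 symbols in all. *PSMA8* was listed at 0 in every library and *PSMB11* had a mean of 0.328, while the lowest member, *PSMB10*, had a mean of 362.2. Untreated cells (d0) were compared with cells on days 1, 4, 7, 10, 15 and 20 of TGFβ (d1 to d20), with 3 libraries per timepoint. TGFβ is a cytokine that drives epithelial cells through epithelial-mesenchymal transition (EMT), the change to a motile, mesenchymal state. All cells were seeded at one density and came from the one line, and the labels give no dose, passage or day of medium change. RNA was measured in bulk, so less RNA per cell and fewer cells of a kind cannot be told apart.

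The recovered totals lay between 18847917 and 22667754 reads per library. Normalised counts are the deposited values, reads per gene divided by a size factor per library. The 5 basal epithelial markers *KRT5*, *KRT14*, *TP63*, *CDH1* and *EPCAM* summed to between 299788 and 319749 in the d0 libraries, 248260 and 258135 on d1, 233254 and 242054 on d4, 273932 and 507586 on d7, 176384 and 178665 on d10, 301644 and 313760 on d15 and 207059 and 208233 on d20. Single markers went different ways. *EPCAM* was lower than d0 on all 6 days, with log2 differences of -0.98 on d1, -2.84 on d7 and -2.43 on d15. *KRT14* was higher on every day but d10, by 1.12 on d7 and 0.71 on d15. *TP63* was higher on d1, d4, d7 and d15 and lower on d10 and d20. *KRT5* was lower on every day but d7, and *CDH1* on d4, d10, d15 and d20. The part of these markers in the results was not tested. The 4 mesenchymal markers *CDH2*, *FN1*, *VIM* and *ZEB1* were higher than d0 on every day. The immune and endothelial genes *PTPRC*, *CD3E* and *CDH5* had at most 3 reads in every library. The libraries of a timepoint were described as biological triplicates, and p-values measure the spread between these samples. Of the 3 libraries at d7, the third in column order stood apart. It differed from the others by a root mean square of 0.47 and 0.46 on the log2 scale over all genes tested, against 0.21 to 0.24 for all other pairs within a timepoint, and by 0.363 and 0.314 over the members. Counts and medians at d7 are therefore given with and without it. The error of each gene was pooled over all libraries in the fit, so leaving it out also changed counts on other days.

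The proteasome is the barrel-shaped protease that degrades proteins tagged with ubiquitin. Its 20S core is built of rings of α subunits (*PSMA*), which gate the barrel, and β subunits (*PSMB*), of which *PSMB5*, *PSMB6* and *PSMB7* carry the cutting sites. The 19S cap holds a ring of ATPases (*PSMC*) that unfold substrates, the scaffold and ubiquitin-binding subunits *PSMD1*, *PSMD2* and *PSMD4*, and a lid that removes ubiquitin. CCT, also called TRiC, is a double-ring chamber of 8 different subunits in which newly made actin and tubulin fold.

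All 43 members varied over the 7 timepoints (F test of limma on log2(normalised count + 1), Benjamini-Hochberg adjusted p under 0.05, the rule for every call below), as did 95.9% of the 13343 genes tested, so that variation alone did not set the members apart. Their direction was shared. Most members were higher at d1, d10 and d20 and lower at d4, d7 and d15, so that the series ran up, down, down, up, down and up. The highest mean was at d10 for 25 members, at d20 for 17 and at d1 for 1, *PSMA4*. The lowest mean was at d15 for 35 members, at d7 for 4 (*CCT4*, *CCT6A*, *PSMA7* and *PSMD4*), at d4 for 3 (*PSMC5*, *PSMD5* and *PSMD10*) and at d0 for *PSMD9*. Over all genes tested, 21.2% were highest at d10, 9.08% at d20 and 25.7% lowest at d15. The distance between a member's highest and lowest timepoint mean had a median of 0.98 on the log2 scale, against 0.82 for all genes tested, and reached from 0.22 for *PSMD10* to 2.11 for *PSMD2*.

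**Figure D1:**
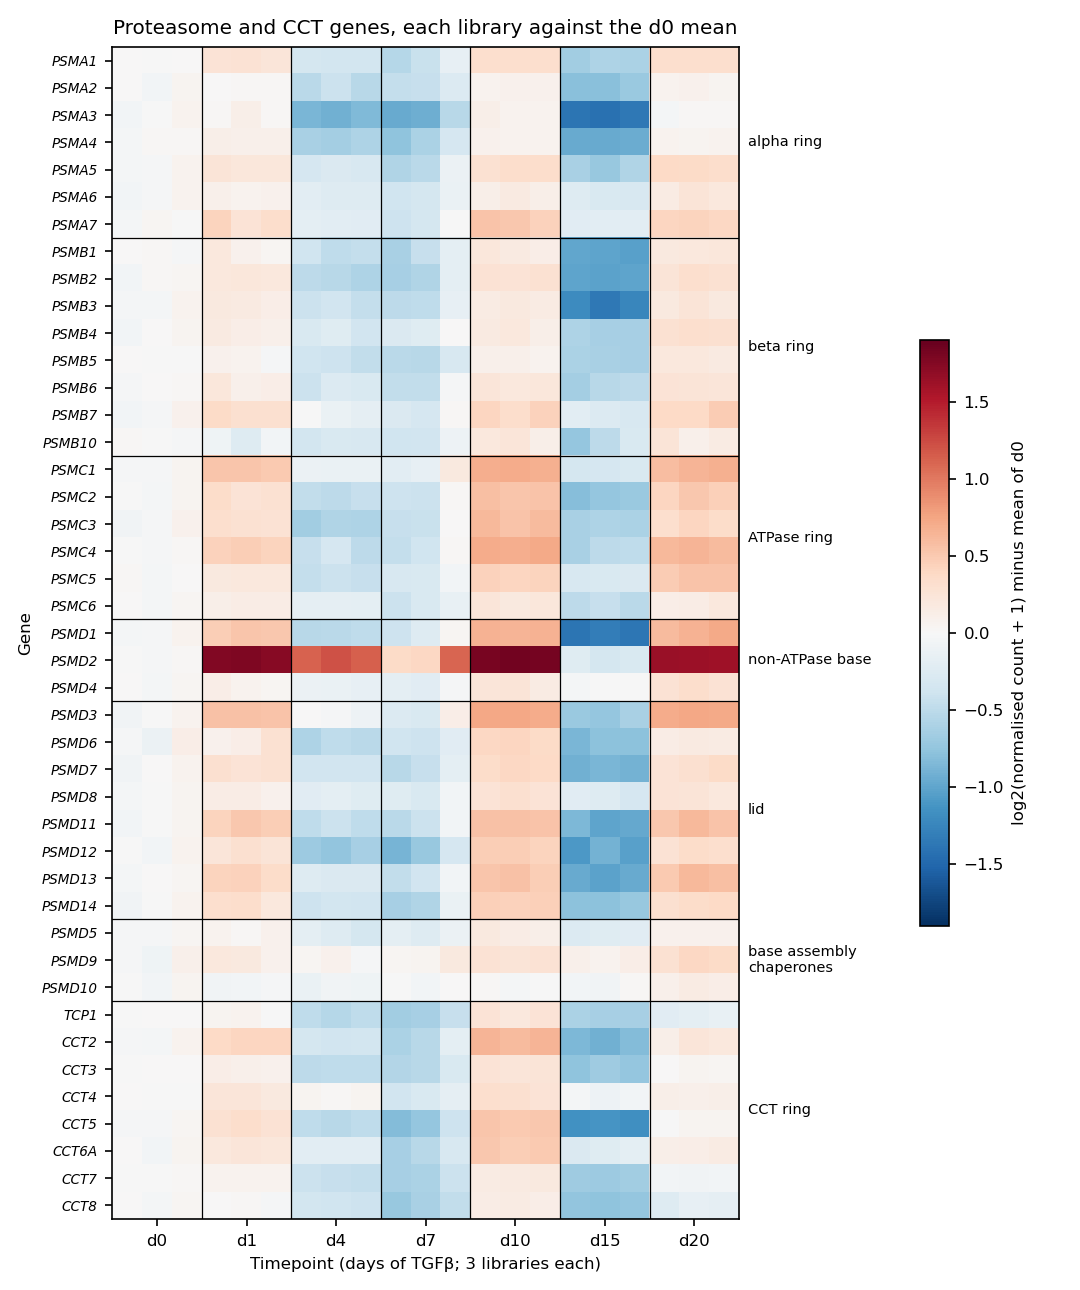
Heatmap of the 43 members (rows, grouped by complex) in the 21 libraries (columns, 3 per timepoint). Colour gives log2(normalised count + 1) minus the mean of the 3 d0 libraries, red above and blue below. The columns of d4, d7 and d15 are mostly blue and those of d1, d10 and d20 mostly red, *PSMD2* is red at d4 and d7 and the third d7 library is paler than the other 2.

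Promoters are shown, to set the windows side by side, for *PSMD11* and *PSMA1*, whose profiles were close to the mean of the proteasome genes, for 4 members whose windows hold a motif, and for *PSMD2* and *PSMD10*, with the widest and the narrowest range. RefSeq windows of 300 bases, from 250 before to 50 after the gene start (GRCh38.p14), were found for 37 of the 43 members, and not for *PSMA7*, *PSMB1*, *PSMB6*, *PSMB7*, *PSMD4* and *CCT6A*. Each line gives a window 5′ to 3′ on the gene's own strand, and capitals mark matches to any of 4 motifs, searched on both strands: TGACNNNGC (the core of the antioxidant response element bound by NFE2L1 and NFE2L2), GAANNTTC (a heat shock element core), CCAAT (the NF-Y box) and CACGTG (an E box).
*PSMD11* (chr17:32444260-32444559, plus strand): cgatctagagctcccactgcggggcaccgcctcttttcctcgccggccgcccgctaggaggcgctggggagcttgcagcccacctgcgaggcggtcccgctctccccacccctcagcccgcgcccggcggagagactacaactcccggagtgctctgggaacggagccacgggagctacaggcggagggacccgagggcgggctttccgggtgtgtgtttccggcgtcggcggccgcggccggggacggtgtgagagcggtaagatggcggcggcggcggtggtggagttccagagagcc
*PSMA1* (chr11:14520337-14520636, minus strand): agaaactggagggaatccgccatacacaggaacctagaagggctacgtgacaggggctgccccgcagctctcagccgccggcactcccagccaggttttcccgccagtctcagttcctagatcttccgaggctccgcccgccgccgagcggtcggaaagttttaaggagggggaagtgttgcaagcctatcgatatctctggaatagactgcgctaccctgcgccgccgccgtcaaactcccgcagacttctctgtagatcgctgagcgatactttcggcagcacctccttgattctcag
*PSMB3* (chr17:38752491-38752790, plus strand): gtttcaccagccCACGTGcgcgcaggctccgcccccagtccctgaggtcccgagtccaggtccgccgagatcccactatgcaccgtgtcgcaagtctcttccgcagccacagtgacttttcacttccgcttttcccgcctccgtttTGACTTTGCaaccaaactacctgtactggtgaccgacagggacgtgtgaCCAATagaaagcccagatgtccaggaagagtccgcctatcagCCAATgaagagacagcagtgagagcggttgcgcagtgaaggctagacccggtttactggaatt
*PSMD3* (chr17:39980557-39980856, plus strand): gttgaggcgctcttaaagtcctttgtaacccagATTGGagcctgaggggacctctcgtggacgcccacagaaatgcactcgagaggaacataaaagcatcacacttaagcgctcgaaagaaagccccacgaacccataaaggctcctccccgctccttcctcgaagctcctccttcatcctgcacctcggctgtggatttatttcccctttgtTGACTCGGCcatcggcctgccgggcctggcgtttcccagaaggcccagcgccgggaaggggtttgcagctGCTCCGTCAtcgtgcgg
*CCT3* (chr1:156338243-156338542, minus strand): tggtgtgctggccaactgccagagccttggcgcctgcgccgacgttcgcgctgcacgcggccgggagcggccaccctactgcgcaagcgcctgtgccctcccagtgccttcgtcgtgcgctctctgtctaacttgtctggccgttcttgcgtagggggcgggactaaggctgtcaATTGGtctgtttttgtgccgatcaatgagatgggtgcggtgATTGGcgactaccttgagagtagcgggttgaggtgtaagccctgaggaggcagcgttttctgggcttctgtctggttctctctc
*TCP1* (chr6:159789553-159789852, minus strand): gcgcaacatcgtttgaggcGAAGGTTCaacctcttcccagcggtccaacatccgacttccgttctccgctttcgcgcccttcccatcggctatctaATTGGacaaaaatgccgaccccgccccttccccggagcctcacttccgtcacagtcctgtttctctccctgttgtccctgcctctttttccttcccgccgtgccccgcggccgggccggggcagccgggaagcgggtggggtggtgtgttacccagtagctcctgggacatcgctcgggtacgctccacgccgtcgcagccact
*PSMD2* (chr3:184298991-184299290, plus strand): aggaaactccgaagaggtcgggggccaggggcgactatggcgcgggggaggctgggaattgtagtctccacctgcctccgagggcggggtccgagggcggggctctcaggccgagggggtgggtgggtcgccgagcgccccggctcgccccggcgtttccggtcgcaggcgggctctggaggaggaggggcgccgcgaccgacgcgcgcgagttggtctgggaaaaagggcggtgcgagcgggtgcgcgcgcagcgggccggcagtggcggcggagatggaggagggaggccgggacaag
*PSMD10* (chrX:108091493-108091792, minus strand): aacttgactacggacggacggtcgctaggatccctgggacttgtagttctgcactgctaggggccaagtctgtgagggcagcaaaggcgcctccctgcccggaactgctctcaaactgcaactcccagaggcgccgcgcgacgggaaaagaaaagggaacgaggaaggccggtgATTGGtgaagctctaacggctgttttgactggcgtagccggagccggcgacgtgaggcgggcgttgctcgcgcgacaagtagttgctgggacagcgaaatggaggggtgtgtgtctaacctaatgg
The CCAAT letters were in the windows of 20 of 37 members (54.1%), against 39.7% of the 27305 genes in the table. They lay in 16 of 30 proteasome genes and 4 of 7 CCT genes. The TGACNNNGC core was in 10 members (27.0%, against 16.1% of all genes), namely *CCT4*, *PSMA4*, *PSMB3*, *PSMC4*, *PSMC5*, *PSMD1*, *PSMD3*, *PSMD5*, *PSMD9* and *PSMD12*. GAANNTTC was in *CCT2* and *TCP1* (5.41%, against 8.21% of all genes) and CACGTG in *PSMB3* and *PSMD9* (5.41%, against 8.77%). The windows of *PSMD11* and *PSMA1* held none of the 4 motifs, and neither did that of *PSMD2* printed above or its other window. GAANNTTC and CACGTG read the same on both strands, no motif contains another, and these matches are letters in a window and not measured binding.

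Each day was compared with d0 to ask how far the genes moved from the untreated state. At d1, 28 of 43 members were higher (31.3% of all genes tested were called higher) and 0 were lower (28.5% of all genes), with a median log2 difference of 0.19. The 6 ATPases and the 8 lid members were all among the 28, with 4 of 8 β subunits, 3 of 7 α subunits and 4 of 8 CCT subunits. At d4, 37 were lower (35.3% of all genes) and 1, *PSMD2*, was higher (36.9% of all genes), with a median of -0.37. At d7, 38 were lower (32.6% of all genes) and again *PSMD2* alone was higher (34.6% of all genes), with a median of -0.32. Without the third d7 library, 40 were lower, *PSMD2* was still the 1 called higher and the median was -0.43. Of all 13343 genes, 4584 were then lower and 4915 higher. Leaving that library out of the fit also gave 35 members higher at d1 and 39 lower at d4. All genes called there rose as well, from 4174 to 4594 higher at d1 and from 4710 to 5020 lower at d4.

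At d10, 37 of 43 members were higher than d0 (37.0% of all genes tested) and 0 were lower (30.7% of all genes), with a median log2 difference of 0.30. The 6 not called were *PSMA2*, *PSMA3*, *PSMA4*, *PSMB5*, *PSMB10* and *PSMD10*. Without the third d7 library in the fit, 42 were called higher at d10, all but *PSMD10*. Over all genes the number called higher at d10 then rose from 4939 to 5283. At d15, 39 were lower (37.3% of all genes) and 0 were higher (39.2% of all genes), with a median of -0.62, the lowest of the 6 days. *CCT4*, *PSMD4*, *PSMD9* and *PSMD10* were not called there. At d20, 33 were higher (32.5% of all genes) and 2, *TCP1* and *CCT8*, were lower (30.2% of all genes), with a median of 0.25. For each count of 0, the number at an unadjusted p under 0.05 was also 0, and edgeR and DESeq2 on the recovered reads gave 0 as well.

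The counts above d0 depended on the scaling of the libraries. After rescaling every library to one total, the median gene lay between -0.20 and -0.14 on the log2 scale on the 6 days, a shift downwards of 0.16 to 0.23 from the deposited scale. The members called higher and lower were then 8 and 9 on d1, 19 and 3 on d10 and 12 and 9 on d20, and their median was -0.0021 at d1, where the median gene was at -0.19. Of the 13343 genes tested, 2436 were called higher and 6692 lower on d1, 2864 and 6740 on d10 and 2661 and 6778 on d20. Quantile normalization gave 11 and 7 members on d1, 21 and 4 on d10 and 20 and 6 on d20. Over all genes it called 3390 and 4642, 4062 and 4716, and 3570 and 4959 in the same order. At d4, d7 and d15 the members lay below d0 under each scaling, with 42, 41 and 42 called lower after rescaling and 41, 40 and 40 after quantile normalization. Of all genes, 6602, 6552 and 6296 were called lower after rescaling and 5461, 5310 and 5370 after quantile normalization. The rises of the proteasome genes at d1, d10 and d20 were thus changes relative to the median gene. For CCT this did not hold on every day. After quantile normalization the CCT median was -0.068 at d1 and -0.21 at d20, with the median gene at -0.060 and -0.072.

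By size, 6 members were called and at least 1.5-fold higher than d0 on 1 day or more (30.7% of all genes tested), namely *PSMC1*, *PSMC4*, *PSMD1*, *PSMD2*, *PSMD3* and *CCT2*. The count was 1 after rescaling and 1 after quantile normalization. At least 1.5-fold lower were 26 members (31.6% of all genes), all of them at d15. Only 4 of these also passed at d4 (*PSMA3*, *PSMA4*, *PSMC3* and *PSMD12*) and 4 at d7 (*PSMA3*, *PSMD12*, *CCT5* and *CCT8*). Without the third d7 library 9 passed at d7, *CCT7*, *TCP1*, *PSMA4*, *PSMB2* and *PSMD14* with those 4.

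**Figure D2:**
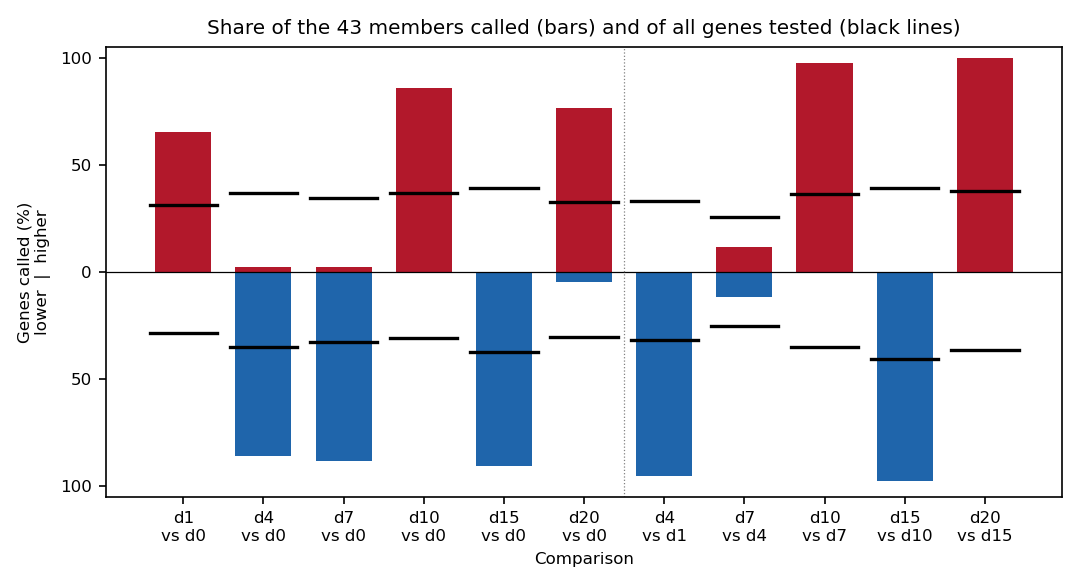
Percentage of the 43 members called higher (red, upwards) and lower (blue, downwards) in each comparison, with black lines for the percentage of the 13343 genes tested. In every comparison but d7 against d4, where both bars stay short, the bar passes the line in 1 direction and not in the other.

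Neighbouring days of treatment, which do not involve d0, gave fuller counts. Between d1 and d4, 41 members fell (32.0% of all genes tested) and 0 rose (32.9% of all genes), *PSMB10* and *PSMD10* being the others, with a median of -0.57. Between d4 and d7 the members split, with 5 higher (*PSMC2*, *PSMC3*, *PSMC5*, *PSMD1* and *PSMD6*) and 5 lower (*CCT4*, *CCT6A*, *CCT7*, *CCT8* and *PSMD2*), where 25.5% of all genes were called in each direction. That split rested on the third d7 library, without which 4 were higher and 21 lower. In that fit 3898 of the 13343 genes tested were called higher and 4013 lower, against 3406 each with all libraries. From d7 to d10, 42 members rose (36.2% of all genes) and 0 fell (35.2% of all genes), with a median of 0.71, or 0.80 without the third d7 library. From d10 to d15, 42 fell (40.5% of all genes) and 0 rose (39.3% of all genes), with a median of -0.96. From d15 to d20 all 43 rose (37.7% of all genes) and 0 fell (36.3% of all genes), with a median of 0.94. *PSMD10* was the member missing from d7 to d10 and from d10 to d15. Over the 6 days, 38 members were called higher than d0 at least once and lower at least once, as were 28.7% of all genes tested. After rescaling or quantile normalization, at least 40 members were called in the direction given between d1 and d4, d7 and d10, d10 and d15, and d15 and d20. Between 4292 and 5304 of the 13343 genes tested were called in those directions.

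The β subunits that cut substrates had smaller ranges over the timepoints than the ring's structural subunits. *PSMB5*, the chymotrypsin-like site and the main target of bortezomib, had normalised counts of 3418, 3373 and 3370 on d0, 3595, 3536 and 3344 on d1, 2594, 2577 and 2441 on d4, 2379, 2356 and 2750 on d7, 3626, 3640 and 3532 on d10, 2227, 2201 and 2181 on d15 and 3896, 3876 and 3812 on d20. All libraries of d4, d7 and d15 lay below every d0 library, those of d10 and d20 lay above, and d1 overlapped d0. The log2 difference from d0 was -0.62 ± 0.046 (SE, n = 3 each, limma adjusted p = 5.82e-11) at d15 and 0.19 ± 0.046 (adjusted p = 0.00114) at d20. Each SE of a log2 difference is that of limma, with the spread pooled over all libraries in the fit. *PSMB5* was called neither at d1 nor at d10 with all libraries, but was called higher at d10 without the third d7 library.

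*PSMB6*, the caspase-like site, had normalised counts of 1712, 1756 and 1766 on d0, 2026, 1861 and 1911 on d1, 1320, 1460 and 1424 on d4, 1265, 1256 and 1713 on d7, 2036, 2008 and 2017 on d10, 1113, 1207 and 1233 on d15 and 2099, 2075 and 2039 on d20. The third d7 library overlapped d0 and the other 2 did not. *PSMB7*, the trypsin-like site, had 1550, 1577 and 1696 on d0, 2067, 1992 and 1983 on d1, 1594, 1465 and 1425 on d4, 1332, 1290 and 1633 on d7, 2125, 2033 and 2166 on d10, 1400, 1342 and 1304 on d15 and 2093, 2080 and 2249 on d20. Every library of d1, d10 and d20 lay above d0, while d4 overlapped d0 and was not called (log2 difference -0.11, adjusted p = 0.157). The range between highest and lowest timepoint was 1.75-fold for *PSMB5*, 1.75-fold for *PSMB6* and 1.59-fold for *PSMB7*.

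The largest ranges in the β ring belonged to *PSMB3* (2.77-fold) and *PSMB2* (2.44-fold), structural subunits without a cutting site. *PSMB3* had normalised counts of 2953, 2970 and 3193 on d0, 3445, 3407 and 3325 on d1, 2292, 2358 and 2214 on d4, 2145, 2166 and 2730 on d7, 3381, 3463 and 3385 on d10, 1324, 1189 and 1281 on d15 and 3437, 3599 and 3455 on d20. The d15 libraries were far below all others, and those of d1, d10 and d20 did not overlap d0. The fall at d15 was 2.40-fold (log2 difference -1.26 ± 0.064, adjusted p = 1.13e-13). *PSMB2* had 5286, 5568 and 5641 on d0, 6292, 6394 and 6346 on d1, 3903, 3826 and 3671 on d4, 3566, 3688 and 4809 on d7, 6644, 6583 and 6736 on d10, 2740, 2726 and 2750 on d15 and 6500, 6827 and 6745 on d20, and no day overlapped d0. *PSMB10*, which replaces the trypsin-like subunit in the immunoproteasome, had 396, 387 and 385 on d0, 368, 328 and 374 on d1, 305, 317 and 314 on d4, 299, 303 and 364 on d7, 449, 456 and 420 on d10, 234, 277 and 319 on d15 and 461, 417 and 434 on d20. It was the β subunit not called at d20 (log2 difference of *PSMB10* 0.17 ± 0.091, adjusted p = 0.118), although its 3 libraries there lay above those of d0, and its d15 libraries were the most scattered.

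In the α ring, *PSMA3* and *PSMA4* had the widest ranges and *PSMA6* the narrowest. *PSMA3* had normalised counts of 2497, 2592 and 2715 on d0, 2650, 2808 and 2648 on d1, 1418, 1383 and 1460 on d4, 1332, 1370 and 1796 on d7, 2807, 2732 and 2717 on d10, 992, 973 and 1015 on d15 and 2535, 2652 and 2647 on d20. Its libraries of d1, d10 and d20 lay at or close to those of d0, and its means were 1.83-fold lower at d4, 1.75-fold lower at d7 and 2.62-fold lower at d15. Its log2 differences at d1, d10 and d20 were 0.06, 0.08 and 0.0061. With all libraries in the fit none of them was called (limma adjusted p from 0.316 to 0.946). Without the third d7 library *PSMA3* was called higher at d10, as were all members but *PSMD10*. Without the third d7 library the difference at d7 was -0.94 in place of -0.81. *PSMA4* had 4123, 4283 and 4293 on d0, 4578, 4529 and 4523 on d1, 2755, 2708 and 2821 on d4, 2494, 2786 and 3400 on d7, 4500, 4453 and 4454 on d10, 2190, 2186 and 2209 on d15 and 4453, 4373 and 4424 on d20. No day overlapped d0, but the libraries of d1, d10 and d20 lay only just above it and were not called with all libraries in the fit. Without the third d7 library *PSMA4* was called higher at d10. Its log2 difference at d15 was -0.95 (limma adjusted p = 1.43e-11). *PSMA6* had 3441, 3512 and 3754 on d0, 3807, 3722 and 3787 on d1, 3099, 3018 and 3008 on d4, 2751, 2833 and 3261 on d7, 3857, 4019 and 3862 on d10, 3003, 2916 and 2892 on d15 and 3954, 4235 and 4094 on d20, a range of 1.39-fold. At d15 all 7 α subunits were lower than d0, by 0.20 (*PSMA7*) to 1.39 (*PSMA3*) on the log2 scale.

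The ATPase ring, which unfolds substrates and threads them into the core, rose with all 6 subunits at d1, d10 and d20 on the deposited scale. After rescaling, *PSMC6* turned below d0 on these days (-0.062, -0.017 and -0.043 in order) and *PSMC5* at d1 (-0.0021). Quantile normalization turned *PSMC6* at d1 (-0.01). Median log2 differences from d0 were 0.30, 0.57 and 0.49 on those days, against 0.10, 0.13 and 0.20 for the α ring and 0.14, 0.17 and 0.23 for the β ring. *PSMC2* had normalised counts of 2066, 2020 and 2155 on d0, 2648, 2486 and 2553 on d1, 1500, 1472 and 1532 on d4, 1579, 1573 and 2116 on d7, 3090, 3003 and 3033 on d10, 1191, 1252 and 1278 on d15 and 2746, 2958 and 2854 on d20. The third d7 library lay among those of d0, and every other treated library lay outside their range. *PSMC4* had 1733, 1722 and 1777 on d0, 2359, 2409 and 2336 on d1, 1286, 1391 and 1237 on d4, 1270, 1341 and 1772 on d7, 2842, 2816 and 2880 on d10, 1138, 1235 and 1246 on d15 and 2675, 2727 and 2640 on d20. It was 1.63-fold higher at d10 (log2 difference 0.71 ± 0.077, adjusted p = 5.98e-08) and 1.45-fold lower at d15 (adjusted p = 2.26e-06). *PSMC6* moved least, with 1912, 1858 and 1947 on d0, 2049, 2107 and 2106 on d1, 1688, 1687 and 1674 on d4, 1438, 1559 and 1721 on d7, 2230, 2167 and 2215 on d10, 1350, 1402 and 1341 on d15 and 2083, 2109 and 2185 on d20, and even so no day overlapped d0.

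*PSMD2*, a scaffold of the cap's base, was the member called higher than d0 at d4 and d7, when most others were lower. Its normalised counts were 7530, 7456 and 7667 on d0, 25543, 25699 and 25036 on d1, 16343, 17539 and 16506 on d4, 9728, 9913 and 16292 on d7, 26366, 26922 and 26671 on d10, 6439, 5985 and 6157 on d15 and 23575, 23373 and 23140 on d20. It was 3.37-fold above d0 at d1 (log2 difference 1.75 ± 0.11, adjusted p = 1.52e-11), 2.22-fold above at d4, 3.53-fold at d10 and 3.09-fold at d20, and at d15 it was 1.22-fold below (adjusted p = 0.0254). At d7 the log2 difference was 0.62 ± 0.11 with all libraries and 0.38 ± 0.031 without the third, and every d7 library lay above d0. From d1 to d4 and from d4 to d7 it fell, as most members did from d1 to d4 (log2 differences -0.60 and -0.53, adjusted p = 8.94e-05 and 0.000524). With *PSMD2* left out of the mean, its correlation with the mean profile of the 34 other proteasome genes was 0.77 over the 21 libraries (Pearson, across libraries of the same timepoints), where *PSMD11* had 0.99.

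The genes beside *PSMD2* on the chromosome were looked at after its values were seen. *EIF4G1*, the next gene on one side, had log2 differences from d0 of 0.52, -0.061, -0.11, 0.71, -0.26 and 0.27 over the 6 days in order. *ECE2*, on the other side, had 0.49, 0.41, -0.41, 0.75, -0.39 and 0.23. Both were higher at d1 and d10 (limma adjusted p at most 0.00162), and neither came near the 1.75 and 1.82 of *PSMD2*. *CAMK2N2*, 2 places away with means of 58.7 to 115, was called higher on all 6 days, with 0.53, 0.96, 0.88, 0.58, 0.95 and 0.89 in order.

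*PSMD1*, the other large scaffold of the base, had normalised counts of 3945, 3955 and 4202 on d0, 5595, 5803 and 5746 on d1, 2791, 2837 and 2887 on d4, 3057, 3396 and 4142 on d7, 6399, 6302 and 6389 on d10, 1541, 1621 and 1557 on d15 and 6115, 6396 and 6620 on d20. Its libraries of d10 and d20 stood together at the top and those of d15 at the bottom, a range of 4.05-fold. It was 2.56-fold lower than d0 at d15 (log2 difference -1.36 ± 0.066, adjusted p = 5.93e-14) and 1.58-fold higher at d20. *PSMD4*, a ubiquitin receptor, had 2373, 2305 and 2423 on d0, 2581, 2491 and 2436 on d1, 2190, 2176 and 2131 on d4, 2081, 2049 and 2339 on d7, 2776, 2806 and 2640 on d10, 2306, 2346 and 2364 on d15 and 2857, 2978 and 2870 on d20. Its d15 libraries lay within the range of d0 (log2 difference -0.017, adjusted p = 0.728), where *PSMD1* fell the most of the base subunits.

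**Figure D3:**
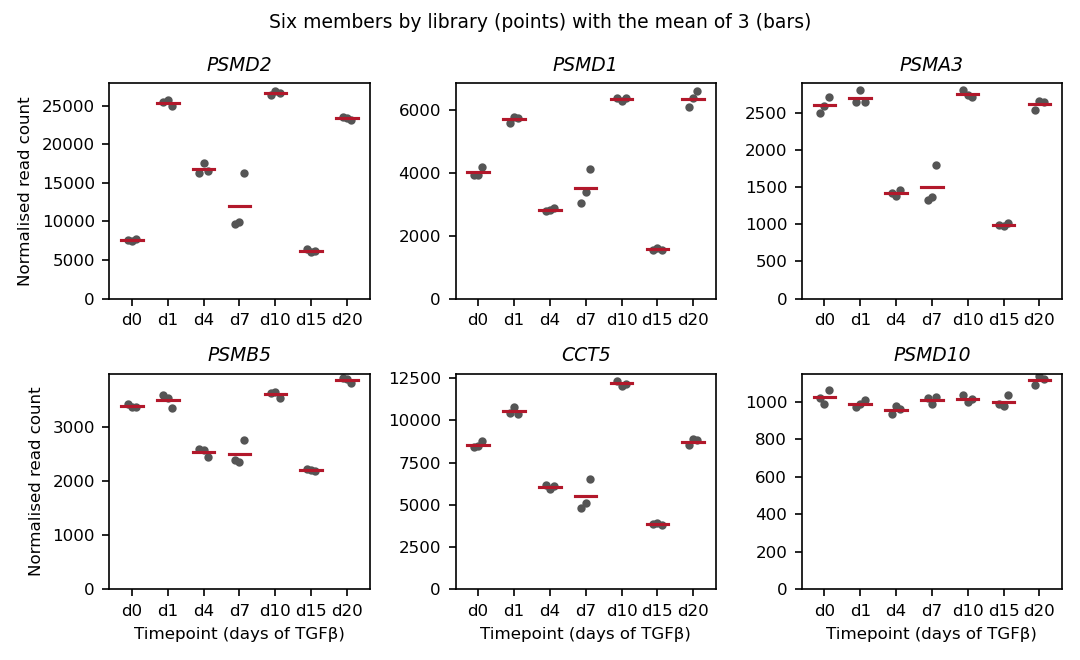
Normalised read counts (linear axes from 0) of *PSMD2*, *PSMD1*, *PSMA3*, *PSMB5*, *CCT5* and *PSMD10* by timepoint, with a point for each library and a red bar for the mean of 3. *PSMD1* and *CCT5* alternate between high and low days, *PSMA3* and *PSMB5* mainly dip, *PSMD2* stays above d0 except at d15 and *PSMD10* is nearly level.

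All 8 lid subunits among the members rose at d1, d10 and d20 on the deposited scale and fell at d15. Their median log2 difference from d0 at d15, -0.85, was the lowest of the proteasome groups. *SHFM1* (SEM1), a small lid subunit outside the rule, is counted below with the accessory proteins and did not rise. It was at -0.047 at d1 and -0.091 at d20, neither called, and was lower at d10 (-0.17, limma adjusted p = 0.00306). After rescaling, *PSMD6* and *PSMD8* turned below d0 at d1 (-0.028 and -0.070) and *PSMD6* at d20 (-0.044). Quantile normalization turned *PSMD8* at d1 (-0.038). *PSMD13* had normalised counts of 1712, 1758 and 1797 on d0, 2351, 2384 and 2247 on d1, 1481, 1455 and 1452 on d4, 1270, 1369 and 1696 on d7, 2530, 2583 and 2433 on d10, 903, 870 and 903 on d15 and 2471, 2689 and 2622 on d20. No treated library overlapped d0, and d15 was 1.97-fold lower (adjusted p = 1.73e-11). *PSMD11*, which like *PSMD13* forms part of the lid's horseshoe of scaffold subunits, had 2389, 2464 and 2576 on d0, 3329, 3525 and 3411 on d1, 1778, 1863 and 1764 on d4, 1734, 1871 and 2376 on d7, 3639, 3645 and 3593 on d10, 1368, 1236 and 1265 on d15 and 3533, 3793 and 3601 on d20. Its libraries lay above d0 at d1, d10 and d20 and below it on the other days, with no overlap. *PSMD11* rose by 0.47, 0.55 and 0.56 on the log2 scale at d1, d10 and d20 and was at -0.94 at d15 (adjusted p = 1.35e-10). *PSMD14*, the enzyme that strips ubiquitin from substrates, is added here after its values were seen, and had a mean of 2990 ± 136 (SD, n = 3) in untreated cells, which went to 4079 ± 19.2 by d10 and 1766 ± 43.7 by d15. *PSMD8* moved least, with 3924, 4032 and 4171 on d0, 4455, 4454 and 4297 on d1, 3473, 3553 and 3441 on d4, 3447, 3301 and 3898 on d7, 4828, 4969 and 4834 on d10, 3488, 3404 and 3235 on d15 and 4837, 4789 and 4644 on d20. *PSMD3* was the lid subunit not called at d4 and d7.

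*PSMD5*, *PSMD9* and *PSMD10* are chaperones that help to assemble the base and are not part of the finished proteasome, and they moved least. *PSMD10*, also called gankyrin, had normalised counts of 1019, 986 and 1061 on d0, 971, 988 and 1009 on d1, 934, 975 and 961 on d4, 1020, 986 and 1024 on d7, 1034, 995 and 1016 on d10, 987, 976 and 1036 on d15 and 1086, 1139 and 1120 on d20. Its libraries overlapped d0 at d1, d7, d10 and d15, and the range between timepoints was 1.17-fold. It was lower at d4 (log2 difference -0.095, adjusted p = 0.0388) and higher at d20 (0.13, adjusted p = 0.00913). *PSMD9* had 1002, 961 and 1092 on d0, 1166, 1161 and 1079 on d1, 1041, 1078 and 1006 on d4, 1048, 1055 and 1158 on d7, 1226, 1211 and 1225 on d10, 1090, 1065 and 1108 on d15 and 1241, 1335 and 1304 on d20. It was never called lower than d0, and its exons overlap those of *WDR66* on the same strand. *PSMD5* had 1580, 1580 and 1653 on d0, 1680, 1635 and 1694 on d1, 1411, 1353 and 1266 on d4, 1406, 1354 and 1489 on d7, 1819, 1774 and 1740 on d10, 1339, 1367 and 1383 on d15 and 1703, 1705 and 1697 on d20 and was called lower at d4, d7 and d15 and higher only at d10.

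Most CCT subunits were lower than d0 at d4, d7 and d15 and higher at d10, and at d20 their median lay near d0. At d10 all 8 were higher and at d15, 7 were lower, with medians of 0.27 and -0.70. The d10 median was 0.04 after rescaling and 0.0093 after quantile normalization, where *CCT7* and *CCT8* were called lower (-0.14 and -0.11) and *CCT3* and *TCP1* also turned below d0. From d4 to d7, with all d7 libraries in the fit, 0 CCT subunits rose and 4 fell, against 5 and 1 of the proteasome genes, with medians of -0.14 and 0.04. Without the third d7 library, 4 of all members rose and 21 fell, as did 3898 and 4013 of the 13343 genes tested. In the first 2 d7 libraries the mean log2 level of the CCT genes, relative to d0, was -0.62 and -0.56. It lay between -0.37 and -0.34 on d4. For the proteasome genes it was -0.40 and -0.36, and between -0.32 and -0.29 on d4. At d20 the CCT median was 0.030 against 0.31 for the 35 proteasome genes, with 3 CCT subunits higher (*CCT2*, *CCT4* and *CCT6A*) and 2 lower (*CCT8* and *TCP1*), while 30 proteasome genes were higher and 0 lower. The same order held under rescaling, with medians of -0.17 and 0.11, and under quantile normalization, with -0.21 and 0.16. *CCT4* and *CCT6A* turned below d0 under both scalings and *CCT2* under the rescaling. No test was made of the difference between the groups of genes.

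*CCT5* had normalised counts of 8414, 8458 and 8806 on d0, 10463, 10800 and 10357 on d1, 6148, 5932 and 6133 on d4, 4828, 5119 and 6548 on d7, 12345, 12052 and 12182 on d10, 3863, 3915 and 3818 on d15 and 8512, 8877 and 8834 on d20. Its d20 libraries overlapped d0 (log2 difference 0.030, adjusted p = 0.71), and d10 was 3.15-fold above d15, the widest range in CCT. *CCT2* had 4154, 4115 and 4444 on d0, 5518, 5602 and 5624 on d1, 3344, 3278 and 3325 on d4, 2806, 2928 and 3722 on d7, 6626, 6400 and 6643 on d10, 2336, 2259 and 2395 on d15 and 4595, 4979 and 4889 on d20. Every treated library lay outside the range of d0. *TCP1*, which encodes the first subunit, had 6561, 6594 and 6623 on d0, 6800, 6872 and 6581 on d1, 4706, 4513 and 4707 on d4, 4192, 4252 and 4866 on d7, 7892, 7599 and 7869 on d10, 4350, 4237 and 4266 on d15 and 5652, 5819 and 5980 on d20. Its d20 libraries were all below d0 (log2 difference -0.18 ± 0.043, adjusted p = 0.00102).

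*CCT8* had 7051, 6836 and 7262 on d0, 7085, 7174 and 6907 on d1, 5559, 5431 and 5366 on d4, 4259, 4610 and 5094 on d7, 7782, 7852 and 7682 on d10, 4200, 4157 and 4225 on d15 and 5956, 6310 and 6290 on d20. Like *TCP1* it was not called at d1, higher at d10 and lower at d20 (-0.19 ± 0.045, adjusted p = 0.00112). *CCT4* moved least, with 7468, 7417 and 7400 on d0, 8704, 8754 and 8445 on d1, 7740, 7543 and 7733 on d4, 5759, 6074 and 6621 on d7, 9226, 9208 and 8920 on d10, 7218, 6935 and 7162 on d15 and 8062, 7908 and 7985 on d20. Its lowest day was d7, and at d4 and d15, when the other 7 subunits were lower than d0, it was not called, although its libraries lay all above d0 at d4 and all below at d15 (log2 differences 0.046 and -0.064, adjusted p = 0.285 and 0.132). The pseudogenes *CCT6P1* and *CCT6P3*, which can share reads with *CCT6A*, had means of 36.1 and 51.2.

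Genes that mark cell division were low on the same days, d4, d7 and d15. The mean log2 level of 12 proliferation genes, relative to d0, lay between -0.18 and -0.14 in the libraries of d1, -0.84 and -0.80 on d4, -0.67 and -0.30 on d7, -0.015 and 0.0091 on d10, -1.78 and -1.76 on d15 and -0.021 and 0.027 on d20. For the 35 proteasome genes the same measure lay between 0.25 and 0.27 on d1, -0.32 and -0.29 on d4, -0.40 and -0.059 on d7, 0.36 and 0.38 on d10, -0.64 and -0.61 on d15 and 0.34 and 0.37 on d20. In the third d7 library it was highest of the 3 for proteasome genes, CCT genes and proliferation genes alike. Of the 12 proliferation genes, 1 was higher and 6 lower on d1, 0 and 12 on d4, 1 and 11 on d7, 2 and 3 on d10, 0 and 12 on d15 and 3 and 4 on d20, with *MCM2* at -1.25 and -2.59 and *RRM2* at -0.62 and -2.69 at d4 and d15. At d1, on the deposited scale, the proteasome genes were above d0 and the proliferation genes below it. The median log2 difference of the proteasome genes at d1 was -0.0021 after rescaling and 0.078 after quantile normalization. The part of cell division in these results was not tested.

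**Figure D4:**
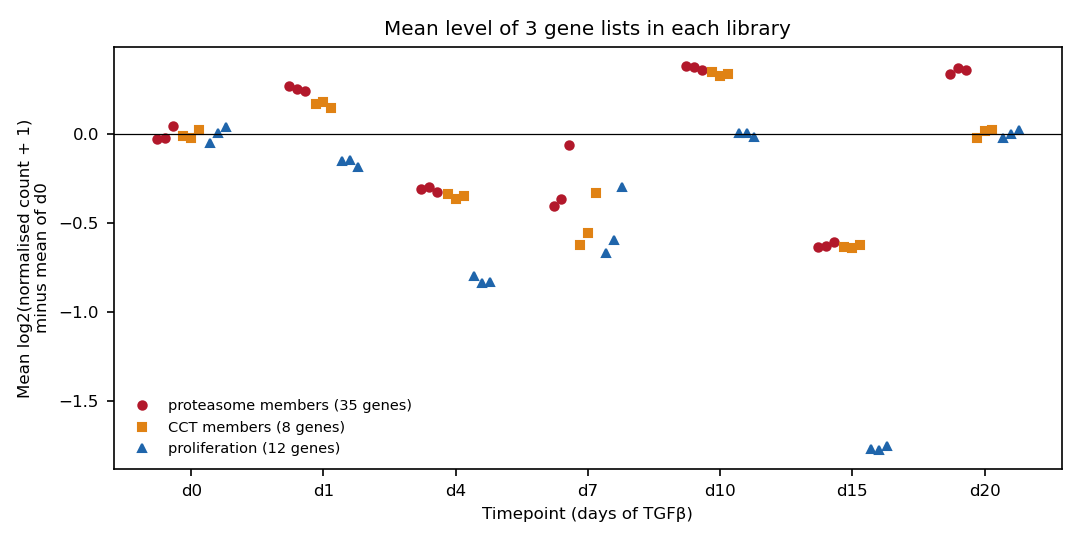
Mean log2(normalised count + 1) of 35 proteasome genes (circles), 8 CCT genes (squares) and 12 proliferation genes (triangles) in each library, minus the mean of d0. The 3 lists are low at d4, d7 and d15, the proliferation genes lowest at d15 near -1.77, the third d7 library is the highest of its day in each list, and at d20 CCT and proliferation are near 0 while the proteasome is near 0.36.

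The lists that follow were tested on the deposited scale only, and differences from d0 smaller than 0.23 lie within the largest shift that rescaling gave the median gene. Between 28.5% and 39.2% of all genes tested were called in each direction on a day, as given above, and the lists hold few genes to set beside those shares. Without the third d7 library the counts higher and lower at d7 were 1 and 6 for the accessory proteins, 2 and 11 for the heat shock genes, 1 and 8 for the prefoldin and co-chaperone genes and 5 and 4 for the actin and tubulin genes, and those of the proliferation genes and of the other proteasome lists given here did not change. Among the proteasome's partners, 11 accessory proteins gave 6 higher and 2 lower on d1, 2 and 8 on d4, 1 and 7 on d7, 6 and 3 on d10, 2 and 7 on d15 and 6 and 4 on d20. *ADRM1*, a ubiquitin receptor of the cap, rose by 0.82 at d10 (adjusted p = 5.99e-13) and *UCHL5*, the deubiquitinase it recruits, was at -1.24 at d15 (adjusted p = 1.40e-14). *PSME1* and *PSME2*, subunits of the interferon-inducible PA28 activator, were lower at d1, d4, d7, d10 and d20, but *PSME1* was not called at d7 without the third library. *PSME1* reached -0.77 at d10 (adjusted p = 3.12e-12) and was slightly higher at d15 (0.12), when *PSME2* was lower (-0.58). A list of 6 further assembly chaperones holds those of the core and *PAAF1*, which acts on the base. *POMP*, which matures the β ring, rose at d1, d10 and d20 (0.42, 0.45 and 0.35) and was at -0.86 at d15, and *PSMG1* was at -1.02 at d15. Of these 6, 4 were lower at each of d4, d7 and d15, and the counts higher and lower were 1 and 1 on d1, 3 and 0 on d10 and 1 and 1 on d20. *PAAF1* was the 1 lower on d1 and among the 4 lower on d15.

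The immunoproteasome subunits left out by the rule are given for comparison with the member *PSMB10*, which was lower at d4, d7 and d15. *PSMB9* was higher than d0 at d4, d7, d15 and d20 (log2 differences 0.46, 0.27, 0.63 and 0.23) and lower at d10 (-0.47, adjusted p = 2.58e-05). *PSMB8* was lower at d1, d4 (-0.30), d10 and d20 and not called at d15 (0.053, adjusted p = 0.297). At d15, when all 8 β members were lower, neither was.

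Of 8 regulators of proteasome genes, 4 were higher and 2 lower on d1, 3 and 1 on d4, 4 and 1 on d7, 4 and 2 on d10, 4 and 3 on d15 and 5 and 2 on d20. *NFE2L1*, which raises proteasome genes when proteasome activity is short, was lower at d1 and d10 (-0.25 and -0.21), when members were higher, and higher at d7, d15 and d20 (0.21, 0.38 and 0.26). *NFE2L2* was lower at d1 and d10 (-0.50 and -0.52, adjusted p = 3.13e-09 and 1.06e-09) and, by less, at d4, d15 and d20. Their small Maf partners *MAFF*, *MAFG* and *MAFK* were higher on all 6 days, *MAFF* by 1.32 to 1.74. *VCP*, the segregase that hands substrates to the proteasome, had log2 differences of 0.65, -0.087, 0.045, 0.70, -0.70 and 0.71 over the 6 days. The values are RNA levels, and NFE2L1 is also controlled after translation.

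Around CCT, 13 heat shock genes, chaperones and *HSF1*, gave 9 higher and 2 lower on d1, 2 and 11 on d4, 2 and 10 on d7, 9 and 1 on d10, 2 and 11 on d15 and 3 and 5 on d20. *HSP90AA1* was at 0.51 at d10 and -1.64 at d15, and *HSPE1*, the mitochondrial co-chaperonin, at 0.11 (not called) and -1.87. *HSF1*, the heat shock transcription factor, was higher on all 6 days (0.32 to 0.68). On d4, d7 and d15 the only chaperone gene called higher was *DNAJB1*. Of 9 prefoldin and CCT co-chaperone genes, 2 were higher and 0 lower on d1, 0 and 5 on d4, 1 and 7 on d7, 3 and 1 on d10, 1 and 6 on d15 and 2 and 1 on d20. *TXNDC9* rose by 0.42, 0.62 and 0.34 at d1, d10 and d20 and was at -1.14 at d15, *PDCL3* was at -1.19 at d15, and *PFDN5* was higher there (0.36). Of 9 actin and tubulin genes, whose products CCT folds, all 9 were higher at d1, d10 and d20, with 3 higher and 3 lower on d4, 5 and 2 on d7 and 2 and 7 on d15. *TUBA1A* was higher on every day, by 1.10 at d15 to 3.15 at d20, and *TUBA1B* was at -1.73 at d15. The tubulin genes are close paralogs, and reads shared among them could be split by the counting.

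Among 10602 genes with a mean of at least 100, the 5 outside these lists whose profile over the 21 libraries was most like the mean of the proteasome genes were *EFTUD2*, *EMG1*, *PPP2CA*, *MRPS23* and *DDX23* (Pearson r from 0.996 to 0.984). *EFTUD2* had log2 differences of 0.49 at d10 and -0.81 at d15, and *EMG1* of 0.77 and -1.34. Most like the CCT mean were *ABCE1*, *DCAF13*, *NCL*, *SYNCRIP* and *PAK1IP1* (r from 0.998 to 0.994), with *ABCE1* at 0.50 and -0.87. The members themselves, each left out of its own mean, had r of 0.48 (*PSMD10*) to 0.99 (*PSMD11*) in the proteasome and 0.825 (*CCT4*) to 0.99 (*CCT7*) in CCT. Libraries share timepoints and scaling, so these values describe likeness only. Exons of *PSMA2*, *PSMC5*, *PSMD1*, *PSMD13*, *CCT4* and *TCP1* overlap a gene on the other strand (*MRPL32*, *FTSJ3*, *HTR2B*, *SIRT3*, *COMMD1* and *ACAT2*), and whether reads were counted by strand is not given in the sources used here.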

How the data were processed

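Normalised counts of 21 HMLE libraries, 3 per timepoint, were analysed. The deposited values are a signal made by the authors: reads per gene divided by a size factor per library. STAR 2.7, Salmon 1.4 and hg19 are named in the submitters' processing notes, and the counting step, annotation and strandedness are not given in the sources used here. Dividing each column by the value of 1 read gave whole numbers (within 0.006, up to 5000 reads) for 100.0% of values, hence the totals.

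Genes with a mean of at least 10 were tested with limma 3.58.1 (R 4.3.3) on log2(value + 1), all 21 libraries in the fit and Benjamini-Hochberg adjustment over all genes. The scripts were tested on simulated data. Also tried were genes without the filter, a pseudocount of 10, libraries rescaled to 1 total, quantile normalization, only the groups compared, and edgeR 4.0.16 and DESeq2 1.42.0 on the recovered reads. At d15 against d0 edgeR called 5097 genes higher and 5189 lower, and limma 5236 and 4972. Each library was also left out in turn, numbered in column order within its timepoint.

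Members and lists were chosen with earlier results of these data known. Values per library are given for the catalytic β subunits, and in each group for the 2 members with the largest and the 1 with the smallest range, with *TCP1* and *CCT8* added after their values were seen. From other lists, the 2 genes with the largest change on any day were named, with others added after their values were seen. Overlapping exons were taken from the reference annotation, and promoters from RefSeq. The list of ubiquitin genes is not reported here.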

Additional observations from a re-analysis of the deposited data

Results flagged for a closer look

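Of the 43 members, 38 were called higher than d0 on at least 1 day and lower on at least 1 other, as were 28.7% of the 13343 genes tested. The difference between the highest and the lowest such day was tested directly, as a limma contrast of those days over all genes, and passed for all 38, with a largest adjusted p of 5.40e-05. Between d10 and d15 the log2 difference was 1.49 (*CCT2*), 0.97 (*CCT3*), 1.66 (*CCT5*), 0.85 (*CCT7*), 0.89 (*CCT8*), 1.01 (*PSMC1*), 1.29 (*PSMC2*), 1.19 (*PSMC3*), 1.24 (*PSMC4*), 0.69 (*PSMC6*), 1.46 (*PSMD12*), 1.21 (*PSMD14*), 2.11 (*PSMD2*), 1.41 (*PSMD3*), 1.2 (*PSMD6*), 1.27 (*PSMD7*), 0.53 (*PSMD8*) and 0.86 (*TCP1*). Between d20 and d15 the log2 difference was 0.94 (*PSMA1*), 1.0 (*PSMA5*), 0.48 (*PSMA6*), 1.21 (*PSMB1*), 1.29 (*PSMB2*), 1.47 (*PSMB3*), 0.92 (*PSMB4*), 0.81 (*PSMB5*), 0.81 (*PSMB6*), 0.67 (*PSMB7*), 2.02 (*PSMD1*), 1.5 (*PSMD11*) and 1.54 (*PSMD13*). Between d10 and d7 the log2 difference was 0.57 (*CCT4*), 0.98 (*CCT6A*) and 0.74 (*PSMA7*). Between d20 and d4 the log2 difference was 0.95 (*PSMC5*) and 0.22 (*PSMD10*). Between d20 and d7 the log2 difference was 0.43 (*PSMD4*). Between d10 and d4 the log2 difference was 0.41 (*PSMD5*). These days were chosen for each gene from its own values, so the differences are descriptions of the size of the swing.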

How the results depend on the processing

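The 25 counts of members, from 11 comparisons, the F test and the 1.5-fold rule, stayed within 1.5 times their value in 157 of 174 values under other settings and 520 of 525 with 1 library left out. Rescaling to 1 total gave 8 higher and 9 lower at d1 against d0, 19 and 3 at d10, 12 and 9 at d20 and 1 member at least 1.5-fold higher. Quantile normalization gave 11 and 7, 21 and 4, 20 and 6 and 1, and 10 higher at d7 against d4, where fitting only the groups compared gave 0 higher and 3 lower. Of the 13343 genes tested, 3492 were higher there under quantile normalization, and 1970 higher and 2203 lower with only the groups compared. The counts of all genes at d1, d10 and d20 are given above. The cause of these changes in the counts was not tested. With 1 library left out the counts ran from 21 to 35 (d1 against d0, higher), 36 to 39 (d4 against d0, lower), 40 to 42 (d4 against d1, lower), 1 to 2 (d7 against d0, higher), 34 to 40 (d7 against d0, lower), 4 to 10 (d7 against d4, higher), 4 to 21 (d7 against d4, lower), 32 to 42 (d10 against d0, higher), 0 to 1 (d15 against d0, higher), 38 to 40 (d15 against d0, lower), 28 to 34 (d20 against d0, higher), 2 to 3 (d20 against d0, lower), 6 to 8 (at least 1.5-fold higher than d0 on 1 day or more) and 25 to 28 (at least 1.5-fold lower than d0 on 1 day or more), and the other counts did not change. The upper ends of 35 (d1 against d0, higher), 39 (d4 against d0, lower) and 42 (d10 against d0, higher) came without d7 replicate 3. Calls over all genes also rose in that fit. The values that moved were 10 higher at d7 against d4 without d7 replicate 1, 21 lower there without d7 replicate 3, 2 higher at d7 against d0 without d0 replicate 3, and 1 higher at d15 against d0 without d0 replicate 3 or d7 replicate 3. Rescaling to 1 total turned the log2 difference from d0 of members called higher, giving at d1 -0.0338 (*PSMB3*), -0.0614 (*PSMB4*), -0.0021 (*PSMC5*), -0.062 (*PSMC6*), -0.0278 (*PSMD6*), -0.0702 (*PSMD8*) and -0.0355 (*PSMD9*), at d10 -0.0556 (*CCT7*), -0.0861 (*CCT8*), -0.0937 (*PSMA6*), -0.0613 (*PSMB1*), -0.0602 (*PSMB3*), -0.0677 (*PSMB4*), -0.0155 (*PSMB6*), -0.0173 (*PSMC6*), -0.016 (*PSMD4*) and -0.0791 (*PSMD5*), and at d20 -0.0141 (*CCT2*), -0.0959 (*CCT4*), -0.0706 (*CCT6A*), -0.0016 (*PSMA6*), -0.011 (*PSMB5*), -0.0426 (*PSMC6*), -0.0735 (*PSMD10*) and -0.0444 (*PSMD6*). Quantile normalization turned the log2 difference from d0 of members called higher, giving at d1 -0.0023 (*CCT4*), -0.0387 (*PSMB4*), -0.01 (*PSMC6*) and -0.0377 (*PSMD8*), at d10 -0.0613 (*CCT3*), -0.1374 (*CCT7*), -0.1085 (*CCT8*), -0.0452 (*PSMA6*), -0.0344 (*PSMB1*), -0.0116 (*PSMB3*), -0.0558 (*PSMB4*), -0.0037 (*PSMD5*) and -0.0097 (*TCP1*), and at d20 -0.103 (*CCT4*) and -0.0135 (*CCT6A*). Of these, *CCT7* and *CCT8* at d10 under quantile normalization and *CCT4* at d20 under both were also called lower. Of 2758 single-member values under other settings, 2615 kept direction and call, 103 lost the call and 40 turned, and of 8274 with 1 library left out 82 lost the call and 0 turned. No paired analysis was possible because no column is numbered by replicate. The 3 libraries per timepoint and 1 line limit what the errors cover.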
